A study of Mus musculus with 8 samples.

Results

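The pannexins Panx1, Panx2 and Panx3 and the connexins Gja1, Gjb2, Gjb5 and Gjb6 were followed in mouse epidermis treated with FA, the glucocorticoid fluocinolone acetonide. These genes were selected on earlier results of the same arrays, in which Panx3 was low after FA in REDD1 KO epidermis, and each was found by the gene symbol of its probe. Of the 7 genes, 6 had a probe, with 8 probes in all among 25697 on the array, which cover 16590 genes. Gjb6 had no probe under that symbol in the annotation used and was not analysed here. A probe was tested when its detection p, the share of negative control beads at least as bright, was under 0.05 on at least 2 of the 8 arrays. This held for 13131 probes and for 6 of the 8 probes considered here, which represent Panx1, Panx3, Gja1, Gjb2 and Gjb5.

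RNA was hybridized to the Illumina MouseRef-8 v2.0 BeadChip, with 2 arrays for each of 4 groups, namely REDD1 KO with FA, REDD1 KO with vehicle, wild-type with FA and wild-type with vehicle. REDD1 KO mice lack the stress-response gene Ddit4 through a LacZ/neo cassette that replaced its exon 2 in all cells, and both genotypes received the same treatments. Females aged 7 weeks with resting hair follicles (telogen) had their skin shaved and then received 2 µg of FA in 200 µl of acetone or acetone alone, and epidermis was taken 24 h later. The sample labels call the strain B6D2, the site the posterior ear lobe and the controls untreated, whereas the study's methods give B6x129 mice, back skin and acetone. Each array is described as 1 animal, so p-values measure the spread between single animals.

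Connexin subunits assemble into hemichannels that dock between neighbouring cells as gap junctions and pass ions and small metabolites. Pannexins form channels to the outside of the cell that release ATP, which then acts on purinergic receptors. In skin, Gja1 is the connexin of most keratinocyte layers, Gjb2 is known for its role in hearing loss with skin disease when mutated, and Panx1 and Panx3 are the pannexins described in keratinocytes. Panx3 is otherwise best known from cartilage and bone.

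Array medians of the raw intensity were 95.9 to 107, whereas negative controls averaged 90.5 to 99.3, and 44.5% to 46.7% of probes were detected. The 2 arrays of a group correlated at 0.976 to 0.99 (Pearson r). Ddit4 had log2 signals of 7.88 and 8.35 with FA and 7.42 and 7.09 with vehicle in REDD1 KO epidermis, against 10.98 and 11.14 with FA and 10.08 and 9.16 with vehicle in wild-type epidermis. No source used here says whether this probe lies in the replaced exon. Marker genes of basal keratinocytes (7 of 7) were detected on all arrays, with a summed normalized signal of 41000 to 53200 on the linear scale. Marker genes of skeletal muscle stood apart on REDD1 KO FA array 1, with a sum of 15400, against 183 on REDD1 KO FA array 2 and 240 to 1120 on the REDD1 KO vehicle arrays. The sums were 498 to 1680 on the wild-type FA arrays and 622 to 639 on the wild-type vehicle arrays. Of 6 adipocyte markers, Adipoq, Lep and Cidec were also highest on REDD1 KO FA array 1. Their log2 signals were 6.67, 6.10 and 5.99 there, against 4.85, 4.49 and 4.45 on REDD1 KO FA array 2. Plin4, Retn and Plin1 were not highest there, and the adipocyte sum was 575, against 643 on wild-type FA array 2.

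Panx3 was low on the REDD1 KO FA arrays and high in the other 3 groups. Its normalized log2 signal was 4.91 and 6.06 in REDD1 KO epidermis with FA, against 8.54 and 9.62 with vehicle. In wild-type epidermis it was 8.53 and 8.90 with FA and 9.44 and 8.84 with vehicle. Both REDD1 KO FA values thus lay below all 6 others, and the groups of the other 6 arrays overlapped. The raw intensities were 107 and 132 on the REDD1 KO FA arrays, where the negative controls averaged 93.5 and 93.1, against 472 and 915 on the REDD1 KO vehicle arrays. On REDD1 KO FA array 1 the detection p was 0.0138, and on the other 7 arrays it was 0.

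The Panx3 difference in REDD1 KO epidermis was -3.59 (SE 0.43, log2 of FA over vehicle), or 12.1-fold lower with FA. This contrast chose the genes, so the value is a description and carries no test. It was -3.02 without REDD1 KO FA array 1, which held the muscle signal, and -4.17 without array 2. Without background correction it was -2.31, since subtraction of the background widens ratios of dim probes. The FA effect in wild-type epidermis, on arrays that did not choose the genes, was -0.43 (95% confidence interval -1.39 to 0.54, limma adjusted p = 0.613). With vehicle, REDD1 KO and wild-type epidermis differed by -0.06 (95% confidence interval -1.03 to 0.91, limma adjusted p = 0.988), a comparison that shares the REDD1 KO vehicle arrays with the choice of genes. With FA, Panx3 was 9.37-fold lower in REDD1 KO than in wild-type epidermis (-3.23, SE 0.43). The FA effect of REDD1 KO minus that of wild-type epidermis was -3.17 (SE 0.61). Both hold the arrays that chose the genes and are given without a test.

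**Figure D1:**
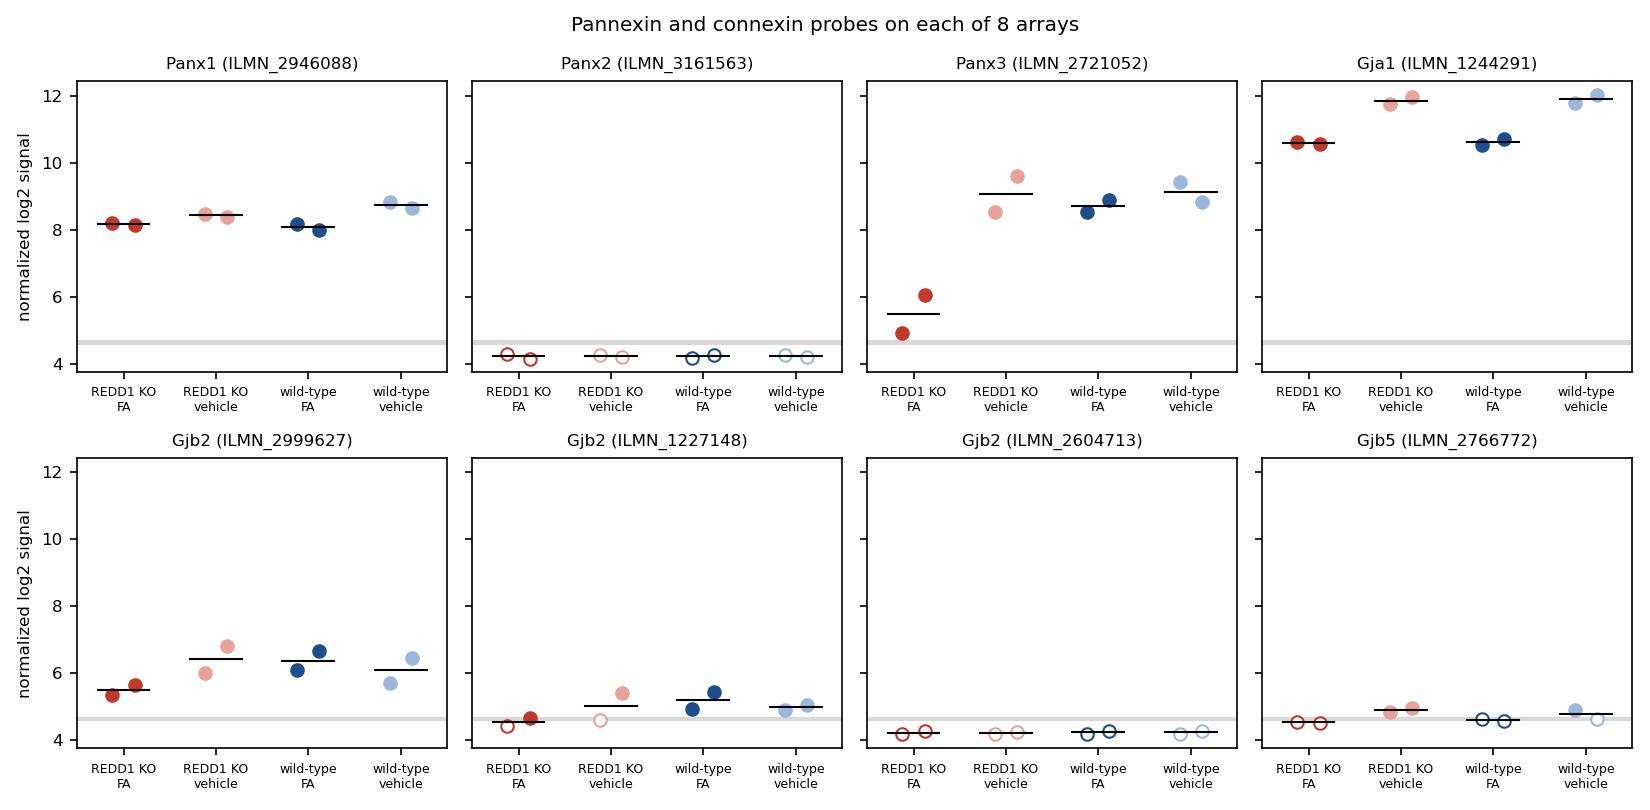
Normalized log2 signal (vertical axis) of the 8 pannexin and connexin probes on each of 8 arrays, by group (horizontal axis). Filled points have a detection p under 0.05, open points do not, lines are group means of 2 arrays, and the grey band is the range of the lowest detected signal of an array (4.60 to 4.67). Panx3 is low on the 2 REDD1 KO FA arrays, and Gja1 is low on all 4 FA arrays.

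Several sebaceous gland markers were low on the same arrays as Panx3. The summed normalized signal of 7 markers was 2400 and 5030 on the REDD1 KO FA arrays, against 8580 and 14600 on the REDD1 KO vehicle arrays. It was 10200 and 14800 on the wild-type FA arrays and 16300 and 12400 on the wild-type vehicle arrays. All 7 had a probe and 6 were tested, while Scd3 was below background on every array. With FA in REDD1 KO epidermis, 3 of the 6 fell and none rose, against 2.34% of all tested probes called lower and 4.51% called in either direction in this contrast. These were Fa2h, a fatty acid hydroxylase (-2.99, limma adjusted p = 0.0276), Krt79, a keratin of the sebaceous duct (-2.63, limma adjusted p = 0.0196), and Scd1, a stearoyl-CoA desaturase (-1.48, limma adjusted p = 0.0453). Plin2 did not pass (-0.81, limma adjusted p = 0.292), nor did Awat2, a wax synthase (-0.13, 0.935), and Mc5r, a melanocortin receptor (-0.17, 0.836), whose REDD1 KO groups overlapped. The sum is mostly Scd1. The median of the 6 was -1.14, against -0.00125 over all tested probes. In wild-type epidermis none of the 6 passed the limma test with FA, and their median was 0.51. An unadjusted p under 0.05 was found for 2 of them, both higher with FA, and for 2980 of all 13131 tested probes. The 2 were Plin2 (1.39, limma adjusted p = 0.0681) and Mc5r (0.86, limma adjusted p = 0.187). The difference between the FA effects of the 2 genotypes passed for none of the 6 (lowest limma adjusted p = 0.335). For 4 of them the unadjusted p was under 0.05, as for 1302 of the 13131 probes. Between REDD1 KO and wild-type epidermis with FA, 4 of the 6 were lower, where 4.02% of tested probes were lower and 7.16% differed in either direction. These were the same 3 and Plin2, a lipid droplet protein (-2.70, limma adjusted p = 0.00703). For Plin2 this difference includes higher wild-type values with FA, at log2 signals of 7.33 and 8.54 against 6.86 and 6.24 with vehicle. Of 9 tested markers of differentiating keratinocytes, Krt1 fell with FA in REDD1 KO epidermis (-1.41, limma adjusted p = 0.0495). Ivl rose (0.77, limma adjusted p = 0.0231), and no others were called. Between the genotypes with FA, 2 of the 9 were lower, where 4.02% of tested probes were lower. Krt1 and Dsc1 (-0.72, limma adjusted p = 0.0993) also had both REDD1 KO FA values below those of the other 6 arrays. The part of the glands or of these keratinocytes in the Panx3 values was not tested, and in bulk epidermis fewer cells of a type and less RNA per cell cannot be told apart.

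**Figure D2:**
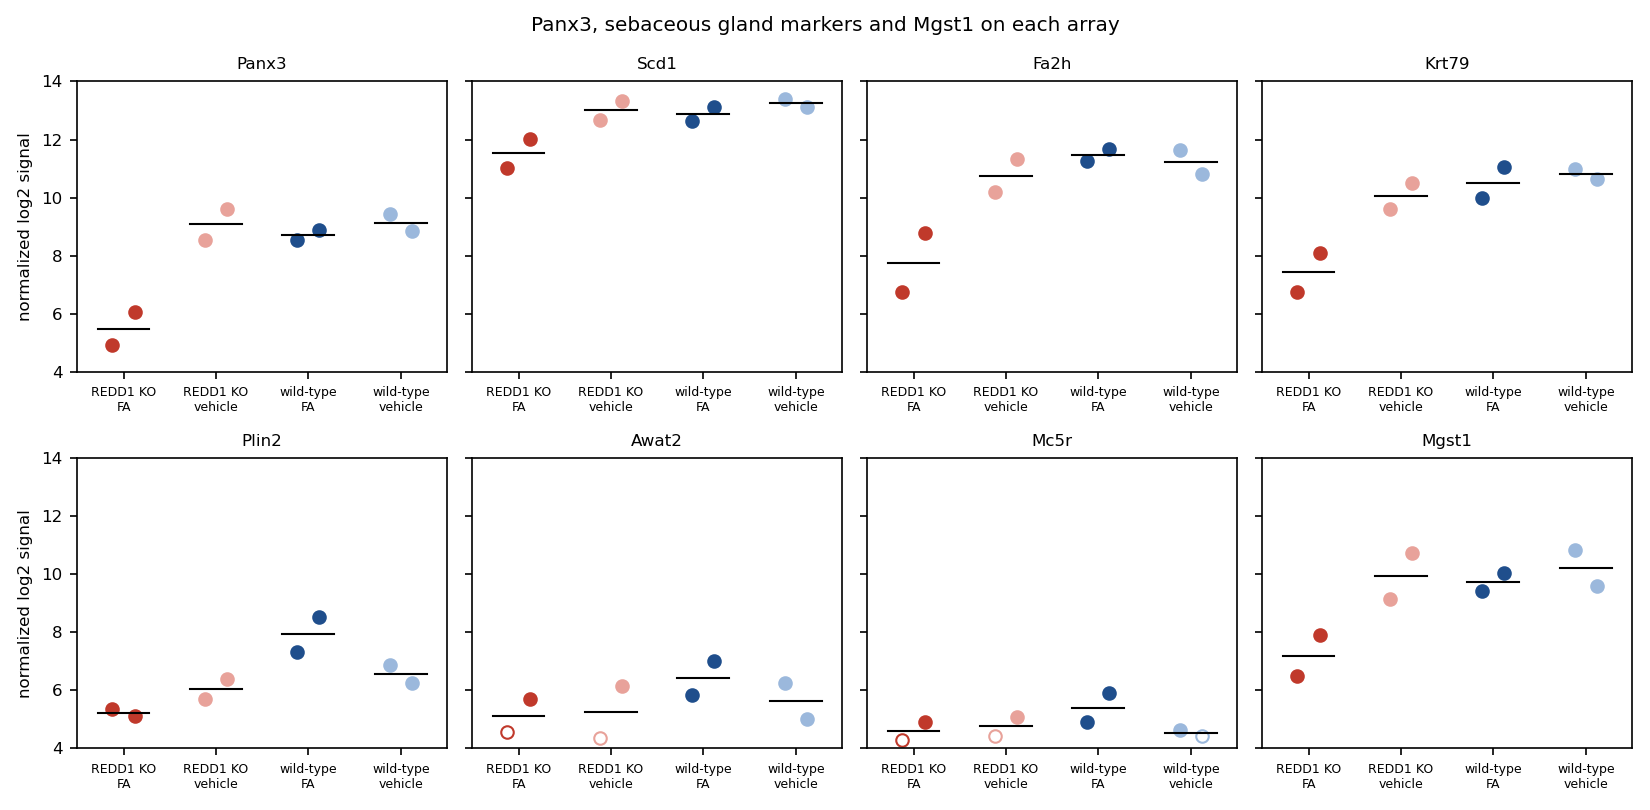
Normalized log2 signal (vertical axis) of Panx3, the 6 tested sebaceous gland markers and Mgst1 on each of 8 arrays, by group (horizontal axis), with lines at the group means of 2 arrays and open points where the detection p is not under 0.05. Both REDD1 KO FA arrays lie below the other 6 for Panx3, Scd1, Fa2h, Krt79, Plin2 and Mgst1, but not for Awat2 and Mc5r.

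Apart from Sox9, markers of the cells in which Panx3 is best known left little signal on any array. Of 13 chondrocyte markers, 12 had a probe and 8 were below background on all arrays, among them Col2a1 and Acan. Sox9 was the 1 marker detected on all 8 arrays, with a mean log2 signal of 6.05, and which cells gave its signal was not tested. Its difference with FA was -0.56 in wild-type and -0.42 in REDD1 KO epidermis (limma adjusted p = 0.0916 and 0.222). The chondrocyte sum was 288 to 300 on the REDD1 KO FA arrays, 307 to 311 on the REDD1 KO vehicle arrays, 279 to 281 on the wild-type FA arrays and 313 to 316 on the wild-type vehicle arrays. Of 5 osteoblast markers, 3 were below background on all arrays, and the sums ranged from 99.3 to 108.

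The genes whose pattern was most like that of Panx3, among 12361 tested probes with a symbol, were Mgst1 (Pearson r = 0.975 over 8 arrays), Tmem97 (0.975), Hebp2 (0.974), Scd1 (0.973) and Alad (0.972). All 5 were lowest on REDD1 KO FA array 1 and next lowest on array 2, as Panx3 was. Without these 2 arrays, a choice made after the values were seen, r over the other 6 was 0.964 for Mgst1, 0.921 for Scd1, 0.896 for Tmem97, 0.73 for Alad and 0.472 for Hebp2. The 5 genes were picked by r over all 8 arrays, which include these 6, so r over the 6 is not a separate result. The points share arrays and their normalization, and r is a description. The sums of sebaceous markers differed between the 2 arrays of each group in the same order as Panx3. Those sums are mostly Scd1, which was picked here for its likeness to Panx3, so this order is not a separate result.

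Panx1, the widely expressed pannexin, was lower with FA in wild-type epidermis. Its log2 signal was 8.17 and 7.99 with FA and 8.83 and 8.66 with vehicle, and the groups did not overlap. The difference was -0.66 (SE 0.16, limma adjusted p = 0.0402), or 1.58-fold lower. In REDD1 KO epidermis it was 8.21 and 8.13 with FA and 8.48 and 8.38 with vehicle, a difference of -0.26 (SE 0.16) given without a test. With vehicle, both REDD1 KO values lay below both wild-type values, but the difference of -0.31 did not pass the test (95% confidence interval -0.67 to 0.04, limma adjusted p = 0.626). The FA effect of REDD1 KO minus that of wild-type epidermis was 0.40 (SE 0.22), and REDD1 KO minus wild-type epidermis with FA was 0.09 (SE 0.16), both given without a test. The Panx1 call in wild-type epidermis was lost without either wild-type vehicle array, either wild-type FA array or either REDD1 KO vehicle array (limma adjusted p = 0.0634 to 0.208). It was also lost in a fit of the 4 wild-type arrays alone (limma adjusted p = 0.0733).

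Panx2, described mainly in the nervous system, was below background on every array. Its log2 signal was 4.29 and 4.16 with FA and 4.27 and 4.21 with vehicle in REDD1 KO epidermis, against 4.17 and 4.27 with FA and 4.27 and 4.21 with vehicle in wild-type epidermis. The lowest signal of a detected probe was 4.60 to 4.67, so Panx2 was not detectable by this probe and was not tested.

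Gja1, the main connexin of epidermis, fell with FA in wild-type epidermis and was low on all 4 FA arrays. Its log2 signal was 10.61 and 10.56 with FA in REDD1 KO epidermis, against 11.74 and 11.98 with vehicle. In wild-type epidermis it was 10.52 and 10.71 with FA and 11.79 and 12.03 with vehicle. The 2 genotypes overlapped within each treatment, and the treatments did not overlap. The difference in wild-type epidermis was -1.30 (SE 0.17, limma adjusted p = 0.00443), or 2.46-fold lower, and it passed the test under all 18 alternatives run, with adjusted p of 0.000149 to 0.0467. In REDD1 KO epidermis it was -1.28 (SE 0.17), or 2.42-fold lower, given without a test. The 2 FA effects share no arrays, and REDD1 KO minus wild-type was 0.02 (SE 0.24). With FA, REDD1 KO minus wild-type epidermis was -0.03 (SE 0.17), and neither value was tested. With vehicle, REDD1 KO minus wild-type epidermis was -0.05 (95% confidence interval -0.43 to 0.33, limma adjusted p = 0.974).

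Of the 6 probes tested in wild-type epidermis with FA, Gja1 and Panx1 were called lower and none higher, against 3.17% of all tested probes called lower and 6.34% called in either direction. The median over the 5 tested genes was -0.43, against -0.0166 over all tested probes. Between REDD1 KO and wild-type epidermis with vehicle, limma called none of the 6, and none had an unadjusted p under 0.05. Of all 13131 tested probes 0.51% were called, and 1134 had an unadjusted p under 0.05.

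**Figure D3:**
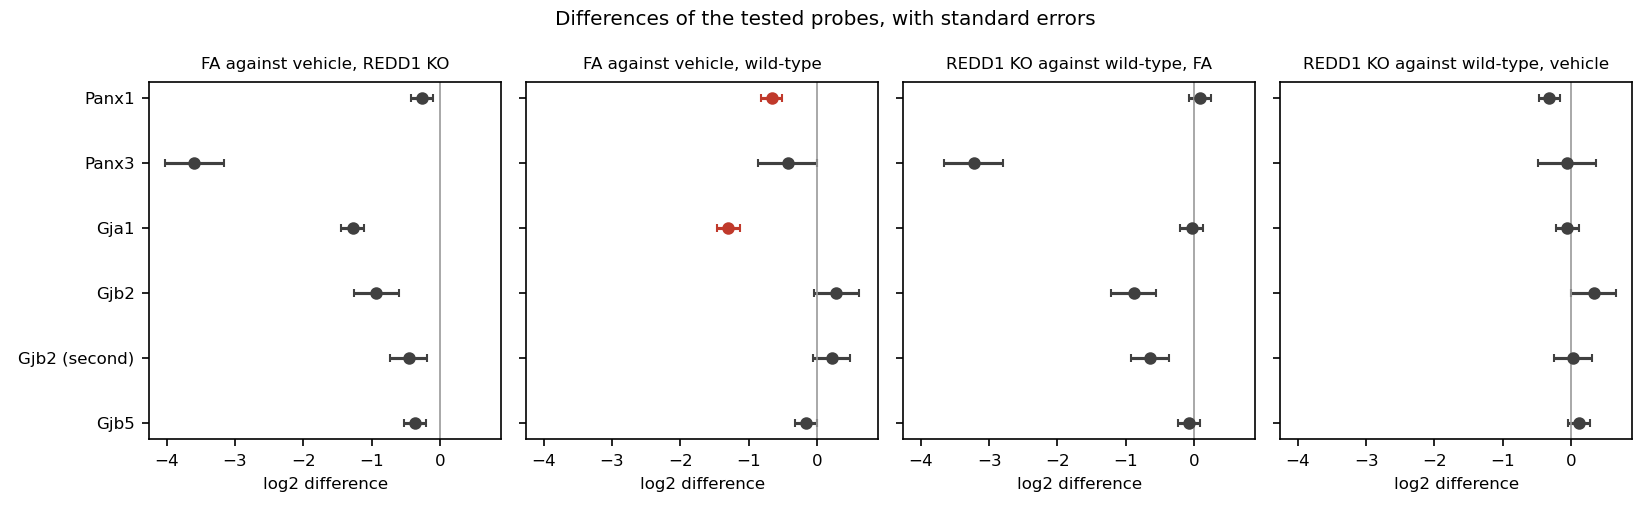
Log2 difference (horizontal axis) of the 6 tested probes (vertical axis) for FA over vehicle in REDD1 KO and in wild-type epidermis and for REDD1 KO over wild-type epidermis with FA and with vehicle, with bars of 1 standard error from the fit of 8 arrays. Red marks the 2 probes called by limma, Gja1 and Panx1 with FA in wild-type epidermis, and the panels that hold REDD1 KO FA arrays carry no test.

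Markers of Langerhans cells and T cells had lower sums with FA in both genotypes. The summed signal of Langerhans cell and macrophage markers (5 of 7 with a probe, Itgax below background on all arrays) was 511 to 975 with FA and 3490 to 3750 with vehicle in REDD1 KO epidermis, and 887 to 1020 with FA and 2830 to 4000 with vehicle in wild-type epidermis. That of epidermal T cell markers (4 of 6 with a probe) was 227 to 396 with FA and 768 to 894 with vehicle in REDD1 KO epidermis, and 454 to 519 with FA and 891 to 1470 with vehicle in wild-type epidermis. With FA in REDD1 KO epidermis 3 of 4 tested Langerhans cell and macrophage markers and 3 of 4 T cell markers were called lower by limma, against 2.34% of all tested probes. In wild-type epidermis it was 2 of 4 and 2 of 4, against 3.17%. The Langerhans cell and macrophage sum is mostly Cd74, a gene associated with class II MHC (-2.87 in REDD1 KO and -2.19 in wild-type epidermis). Lyz2 was called in neither REDD1 KO nor wild-type epidermis (-0.45 and -0.04, limma adjusted p = 0.605 and 0.965). Hair follicle markers (9 of 11 with a probe, Lgr5 below background on all arrays) summed to 6840 to 7470 with FA and 11800 to 12000 with vehicle in REDD1 KO epidermis, and to 7200 to 8590 with FA and 12000 to 12600 with vehicle in wild-type epidermis. That sum is mostly Krt17, the only 1 of 6 tested that was called lower, by -0.79 in REDD1 KO and -0.66 in wild-type epidermis (limma adjusted p = 0.0296 and 0.0458). The other 5 went either way, with Krt27 at 1.51 and Krt31 at 0.71 in REDD1 KO epidermis (limma adjusted p = 0.309 and 0.0511), and the median of the 6 was 0.03 in REDD1 KO and 0.06 in wild-type epidermis. Krt27 stood apart on REDD1 KO FA array 2, at a log2 signal of 7.63 against 4.50, below background, on array 1. Krt71, which was not tested, had 6.54 on array 2 and 4.22, below background, on array 1. The part of these cells in the Gja1 and Panx1 values was not tested.

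The genes most like Gja1 over the 8 arrays were Maob (Pearson r = 0.996), Tfrc (0.992), Hmgn3 (0.989), Arhgef19 (0.989) and Irf1 (0.987). Maob, for example, had log2 signals of 4.96 and 4.90 with FA and 5.92 and 6.03 with vehicle in REDD1 KO epidermis, against 4.76 and 4.97 with FA and 5.86 and 6.17 with vehicle in wild-type epidermis. All 5 were lower on each FA array than on each vehicle array, as Gja1 was. Gja1 and Panx1 correlated at r of 0.826 over the same arrays, and Panx1 and Panx3 at 0.444.

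The sequences just before the RefSeq starts of Gja1 and Panx1 are shown because these genes passed the test with FA. Each is 120 bases, 5′ to 3′ on the strand of the gene, from GRCm38.p6, at chr10:56377180-56377299 (plus strand) for Gja1 and chr9:15045479-15045598 (minus strand) for Panx1. Capitals mark a match to the AP-1 motif TGANTCA.
Gja1: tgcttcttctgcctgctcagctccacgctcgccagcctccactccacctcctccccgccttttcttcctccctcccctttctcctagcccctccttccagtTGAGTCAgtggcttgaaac
Panx1: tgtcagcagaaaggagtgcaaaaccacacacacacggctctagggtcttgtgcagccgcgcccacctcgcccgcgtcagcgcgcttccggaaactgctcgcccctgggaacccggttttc

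In windows of 250 bases before to 50 after the start, searched on both strands, Gja1 held 1 AP-1 match, TGAGTCA, 19 to 13 bases before its start. Panx1, Gjb2, Gjb5 and Gjb6 held none. The motif occurs in 7.81% of 32851 such windows. The glucocorticoid receptor palindrome (in 0.00913% of windows) and AGAACA, 1 arm of it (in 19.0%), were not in these 5 windows. G and C made up 47.7% of the Gja1 window and 61.3% of the Panx1 window, against a median of 52.7% over all windows. Such matches are descriptions of letters and do not show binding.

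Gjb2, a connexin of cochlea and skin, was dim, with 3 probes. The brightest had log2 signals of 5.34 and 5.65 with FA and 6.02 and 6.83 with vehicle in REDD1 KO epidermis, against 6.10 and 6.65 with FA and 5.72 and 6.46 with vehicle in wild-type epidermis. Both REDD1 KO FA values were the lowest of the 8, while the other groups overlapped. The difference in REDD1 KO epidermis was -0.93 (SE 0.33), given without a test. It was -0.42 without background correction and -0.53 without REDD1 KO vehicle array 2. In wild-type epidermis it was 0.29 (95% confidence interval -0.46 to 1.03, limma adjusted p = 0.665). With vehicle, REDD1 KO minus wild-type epidermis was 0.33 (limma adjusted p = 0.862). The FA effect of REDD1 KO minus that of wild-type epidermis was -1.22 (SE 0.47), or -0.56 without background correction. With FA, Gjb2 was 1.85-fold lower in REDD1 KO than in wild-type epidermis (-0.88, SE 0.33, or -0.39 without background correction), also without a test.

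The second Gjb2 probe was detected on 6 arrays. It had log2 signals of 4.44 and 4.67 with FA and 4.61 and 5.42 with vehicle in REDD1 KO epidermis, against 4.94 and 5.45 with FA and 4.90 and 5.07 with vehicle in wild-type epidermis. Here the REDD1 KO groups overlapped, with a difference of -0.46 (SE 0.27), and the FA effect in wild-type epidermis was 0.22 (limma adjusted p = 0.701). The pair of probes correlated at r of 0.912 over the 8 arrays. The third probe was below background on every array, at 4.19 to 4.28. Gjb2 correlated with Panx3 at r of 0.75 by its brightest probe, a description over 8 arrays.

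Gjb5, a connexin described in rodent epidermis, was at the edge of detection and was detected on 3 arrays. Its log2 signal was 4.56 and 4.51 with FA and 4.84 and 4.95 with vehicle in REDD1 KO epidermis, against 4.65 and 4.57 with FA and 4.91 and 4.64 with vehicle in wild-type epidermis. No FA array of either genotype detected it. With vehicle it was detected on both REDD1 KO arrays and on 1 of the 2 wild-type arrays, so it was tested only because of vehicle arrays. In REDD1 KO epidermis it was at least 1.17-fold lower with FA, counted against the lowest detected signal of each FA array, a description with no test. In wild-type epidermis the FA and vehicle arrays overlapped. The fitted difference in wild-type epidermis was -0.16 (95% confidence interval -0.52 to 0.20, limma adjusted p = 0.599). With vehicle, REDD1 KO minus wild-type epidermis was 0.12 (limma adjusted p = 0.912).

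In the RefSeq annotation Gjb2, Gjb6 and Gja3 lie next to each other on chromosome 14, with no coding gene between them, and Gjb5 lies on chromosome 4. Panx1 and Panx3 are both on chromosome 9, with 212 coding genes between them. Gja1 and the deleted gene Ddit4 are both on chromosome 10, with 22 coding genes between them.

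Of 16 other connexins, 11 had a probe, 5 were tested, and limma called none of them in any comparison. At an unadjusted p under 0.05 there were none for FA in either genotype, 1 for REDD1 KO against wild-type epidermis with FA (Gjd3, below background on both REDD1 KO arrays and 1 wild-type array) and 1 with vehicle (Gja4, 0.39). Over all 13131 tested probes there were 2980 for FA in wild-type and 2569 in REDD1 KO epidermis, 3332 between genotypes with FA and 1134 with vehicle. Gja4, a connexin of endothelium, was the only one detected on all 8 arrays. Its log2 signal was 5.06 and 5.09 with FA and 5.42 and 5.32 with vehicle in REDD1 KO epidermis, against 5.03 and 4.75 with FA and 4.85 and 5.11 with vehicle in wild-type epidermis. Gja6 was detected on 5 arrays, at 4.45 to 4.87. Gja3, a lens connexin, was detected on 2 arrays, at 4.25 to 4.76. Gjb1, the connexin of myelinating Schwann cells and liver, was detected on 2 arrays, at 4.45 to 4.87, and Gjd3 on 2 arrays, at 4.26 to 5.001.

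Genes that anchor, traffic or modify connexins and pannexins did not pass the test by their brightest probes. Of 25 listed, 18 had a probe and 14 were tested, and limma called none by its brightest probe in any comparison. A dimmer probe of the kinase Csnk1d was called higher with FA in wild-type epidermis (0.70, limma adjusted p = 0.0449). In REDD1 KO epidermis that probe was at 0.57 (limma adjusted p = 0.104). The other Csnk1d probes were at -0.03 to 0.38 with FA in wild-type epidermis, and none of them was called there. By the brightest probes, an unadjusted p under 0.05 was found for 5 of the 14 with FA in wild-type and 4 in REDD1 KO epidermis. Between the genotypes there were 2 with FA and none with vehicle. Over all 13131 tested probes these counts were 2980, 2569, 3332 and 1134. The median of the 14 with FA was 0.12 in REDD1 KO and 0.17 in wild-type epidermis, against -0.00125 and -0.0166 over all tested probes. The nearest to the threshold were Src, a kinase that phosphorylates Gja1, with FA in wild-type epidermis (-0.71, limma adjusted p = 0.0511), and Cav1, the caveolar scaffold, with FA in REDD1 KO epidermis (0.77, limma adjusted p = 0.055). A dimmer Src probe, detected on 4 arrays, went the other way with FA in wild-type epidermis (0.28, limma adjusted p = 0.443). Tjp1, the scaffold that binds the tail of Gja1, had log2 signals of 6.91 and 6.80 with FA and 7.05 and 6.83 with vehicle in REDD1 KO epidermis, against 7.54 and 7.20 with FA and 6.66 and 6.998 with vehicle in wild-type epidermis. Of 10 genes of other large-pore channels, 7 had a probe and 2 were tested, Lrrc8a and Lrrc8d. Neither was called by its brightest probe. A dimmer Lrrc8a probe was called higher with FA in REDD1 KO epidermis (0.87, limma adjusted p = 0.0262). It had log2 signals of 5.12 and 5.17 with FA there, and 4.23 and 4.32, both below background, with vehicle. In wild-type epidermis it was at 0.42 (limma adjusted p = 0.193). By the brightest probes, 1 of the 2 genes had an unadjusted p under 0.05 with FA in REDD1 KO epidermis. There was 1 for REDD1 KO against wild-type epidermis with vehicle and none in the other comparisons between groups. The counts over all tested probes are those given above.

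P2ry1 and Adora3, receptors on which products of released ATP act, fell with FA in both genotypes. Of 27 purinergic genes, 21 had a probe and 11 were tested. With FA 2 fell and 1 rose in REDD1 KO epidermis, and 2 fell and none rose in wild-type epidermis, against the 4.51% and 6.34% of all tested probes called. The median was -0.22 in REDD1 KO and -0.29 in wild-type epidermis. Limma called none between the genotypes with either treatment, and 1 of the 11 had an unadjusted p under 0.05 in each. Of all 13131 tested probes, 3332 had such a p between the genotypes with FA and 1134 with vehicle.

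P2ry1, a receptor of ADP, had log2 signals of 6.97 and 7.13 with FA and 8.18 and 8.14 with vehicle in REDD1 KO epidermis, a difference of -1.11 (SE 0.24, limma adjusted p = 0.0358). Wild-type epidermis had 7.30 and 7.30 with FA and 8.31 and 9.12 with vehicle, a difference of -1.41 (SE 0.24, limma adjusted p = 0.0119). The FA and vehicle arrays did not overlap in either genotype. Adora3, a receptor of adenosine, had 4.84 and 5.21 with FA and 5.97 and 6.28 with vehicle in REDD1 KO epidermis (-1.10, SE 0.22, limma adjusted p = 0.0281). In wild-type epidermis it had 5.17 and 4.88 with FA and 6.34 and 5.86 with vehicle (-1.07, SE 0.22, limma adjusted p = 0.0257). P2ry1 lost its call in REDD1 KO epidermis without any 1 of the 4 REDD1 KO arrays or either wild-type FA array (limma adjusted p = 0.0707 to 0.159), and in wild-type epidermis without either wild-type FA array (0.0815 and 0.0835). Adora3 lost its call in REDD1 KO epidermis without either REDD1 KO vehicle array, REDD1 KO FA array 1 or either wild-type FA array (limma adjusted p = 0.0507 to 0.179). Its call in wild-type epidermis was lost without wild-type vehicle array 1 or either wild-type FA array (limma adjusted p = 0.0916 to 0.164). Without background correction the Adora3 difference was -0.42 in REDD1 KO and -0.41 in wild-type epidermis, and neither passed (limma adjusted p = 0.0678 and 0.0575). These receptors are also made by immune cells, whose marker sums were lower with FA as given above, and their part was not tested.

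Slc29a1, a transporter that carries adenosine across the cell membrane, rose with FA in REDD1 KO epidermis, with log2 signals of 8.73 and 8.27 with FA and 7.33 and 6.77 with vehicle (1.46, SE 0.26, limma adjusted p = 0.0172). In wild-type epidermis it had 8.16 and 7.57 with FA and 7.22 and 7.20 with vehicle (0.65, SE 0.26, limma adjusted p = 0.176). Nt5e, the enzyme that makes adenosine from AMP outside the cell, had 8.42 and 9.09 with FA and 9.88 and 9.69 with vehicle in REDD1 KO epidermis by its brightest probe (-1.03, limma adjusted p = 0.0757). Its second probe had 6.04 and 6.14 with FA and 7.29 and 7.17 with vehicle and passed the test (-1.14, limma adjusted p = 0.011). In wild-type epidermis the brightest Nt5e probe had 8.76 and 9.13 with FA and 9.82 and 9.18 with vehicle (-0.56, limma adjusted p = 0.271). The second had 6.22 and 6.70 with FA and 7.13 and 7.002 with vehicle, with no overlap (-0.60, limma adjusted p = 0.0908). The FA effect of REDD1 KO minus that of wild-type epidermis was 0.80 for Slc29a1 (limma adjusted p = 0.517) and -0.47 and -0.53 for the Nt5e probes (limma adjusted p = 0.716 and 0.535), and none passed the test. The Slc29a1 call was lost without REDD1 KO vehicle array 2 (limma adjusted p = 0.116) or REDD1 KO FA array 1 (0.077).

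**Figure D4:**
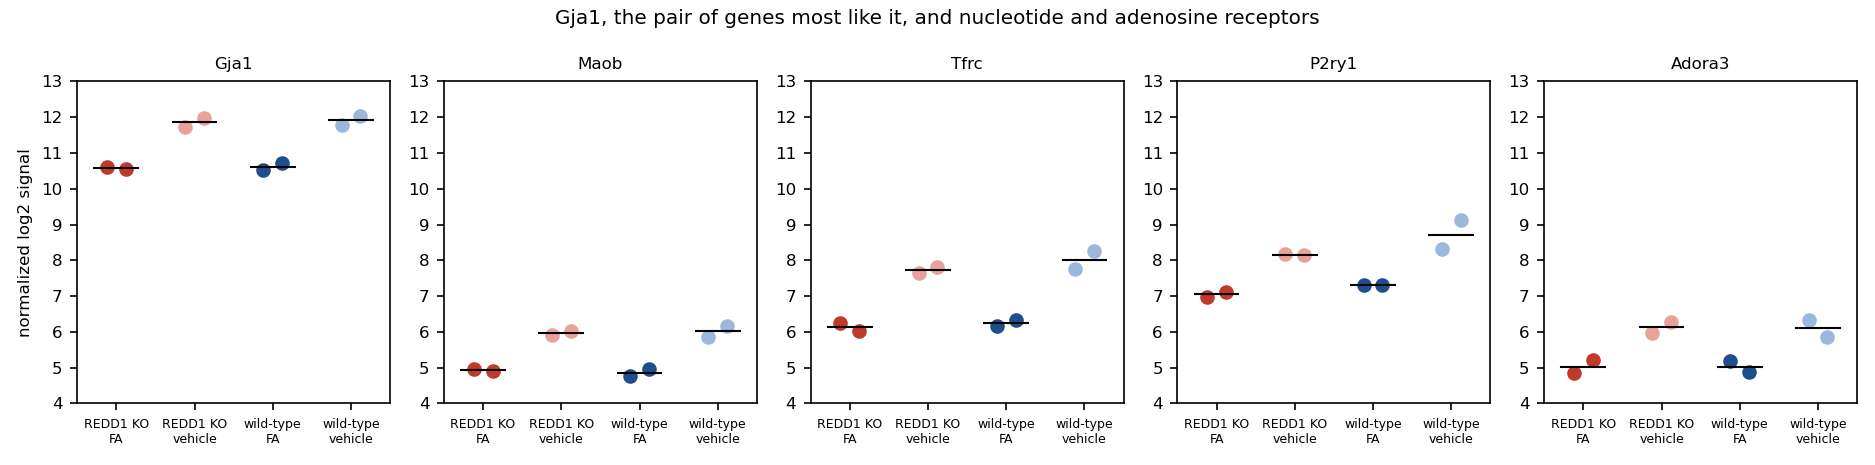
Normalized log2 signal (vertical axis) of Gja1, of Maob and Tfrc, whose pattern over 8 arrays was most like it, and of the receptors P2ry1 and Adora3, by group (horizontal axis), with lines at the group means of 2 arrays. In each panel the 4 FA arrays lie below the 4 vehicle arrays.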

How the data were processed

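Epidermal RNA of 8 mice was measured on 8 arrays. The authors deposited bead intensities of 25697 probes and 832 control lines, neither background-subtracted nor normalized, a detection p-value with each intensity, and log2 values made with the neqc function of limma, which the deposited value table repeats. No source used here names the software of the core facility. The intensities were processed again with neqc (limma 3.58.1, R 4.3.3; offset 16; 798 control lines taken as negative, as the smallest step between detection p-values implies), and the result differed from the deposited log2 values by at most 5e-09. In the intensities 2 broken text lines were left out.

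The limma model held a mean for each group and all 8 arrays (4 residual and 5.08 prior degrees of freedom), with two-sided p-values adjusted by Benjamini-Hochberg over the 13131 tested probes. Calls have an adjusted p under 0.05. The number of arrays limits the precision. Platform gene symbols were updated by entrez number (23962 probes), and 1719 probes have no symbol. Genes are led by the probe with the highest mean log2 signal. All probes of the 7 genes, the called genes of 4 lists of related genes, the detected connexins and the 5 genes most like Panx3 and Gja1 are named, and 14 marker lists were summed. Gjd3, Src, Cav1 and Tjp1, the second probe of Nt5e and the dimmer probes of Csnk1d, Lrrc8a and Src were described after their values were seen. So were Krt1, Ivl, Dsc1, Sox9, Krt17, Krt27, Krt31, Krt71, Awat2, Mc5r, Cd74, Lyz2, the adipocyte markers and Plin2 in wild-type epidermis. The genes and lists were chosen with earlier results of these data known. The scripts were tested on simulated data. Alternatives were other background, offset, normalization, filter, fit and moderation settings and leaving out each array. Promoter windows are RefSeq sequences, found for 5 of the 7 genes. Python 3.11.15 and matplotlib 3.10.9 drew the figures.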

Additional observations from a re-analysis of the deposited data

Results flagged for a closer look

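Gjd3, another connexin, had both FA arrays below both vehicle arrays in REDD1 KO epidermis and above them in wild-type epidermis, but 6 of its 8 signals were below background. Its log2 signal was 4.26 and 4.27 with FA and 4.78 and 4.59 with vehicle in REDD1 KO epidermis, against 4.50 and 5.001 with FA and 4.43 and 4.46 with vehicle in wild-type epidermis. The FA effect of REDD1 KO minus that of wild-type epidermis was -0.73, with a limma adjusted p of 0.438. The probe was detected on 2 of 8 arrays, wild-type FA array 2 and REDD1 KO vehicle array 1, so each direction rests on 1 detected array. Counted against the lowest detected signal, FA arrays were at least 1.02-fold lower in REDD1 KO epidermis, and those of wild-type epidermis at least 1.08-fold higher.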

How the results depend on the processing

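Of the 6 tested pannexin and connexin probes, 2 were lower with FA in wild-type epidermis, against 1 in the fit of the 4 wild-type arrays alone and 1 to 2 when 1 array was left out. The probe lost was Panx1 each time, and Gja1 passed under all 18 alternatives. None was called between the genotypes with vehicle under any of the 18. No called value of Gja1, Panx1, Ddit4, P2ry1, Adora3 or Slc29a1 turned its sign, and the alternatives were not run for marker genes or dimmer probes outside the 7 genes. Without background correction the Panx3 difference with FA in REDD1 KO epidermis was -2.31 and that between genotypes with FA -1.99. Calls over all probes varied more when 1 array was left out, at 178 to 649 with FA in REDD1 KO epidermis (592 with all arrays), 143 to 903 with FA in wild-type epidermis (833), 91 to 965 between genotypes with FA (940) and 17 to 65 with vehicle (67). P2ry1 lost its call under 9 of 18 alternatives in REDD1 KO and 2 in wild-type epidermis, Adora3 under 8 and 5, and Slc29a1 under 3 in REDD1 KO epidermis, and the adjusted p reached 0.179 at most. The labels do not say what the replicate numbers share. Deviations of same-numbered arrays correlated at 0.215 to 0.252 among REDD1 KO FA, REDD1 KO vehicle and wild-type FA, and at -0.107 to -0.0297 between wild-type vehicle and these, so the numbers were not taken as pairs. With the number as a replicate block 2 of the 6 probes were still lower with FA in wild-type epidermis, and 786 of all probes were called there. Signals near the background limit what can be said of Gjb5, Panx2 and the other connexins.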
